A study of Mus musculus with 12 samples.

Results

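Among 12 RNA-seq libraries of isolated mouse heart muscle cells, 6 carried more atrial transcript than the other 6. The atrial-rich libraries were chosen by a single value, a level of *Myl7*, the regulatory myosin light chain of the atria, above 85 counts per 1000000 of the library total. They are NX JV101 replicates 1, 2 and 3, sham JV101 replicate 3 and sham saline replicates 1 and 3. The atrial-poor libraries are NX saline replicates 1, 2 and 3, sham JV101 replicates 1 and 2 and sham saline replicate 2. All 12 came from wild-type C57BL6 mice killed 16 weeks after surgery, with 3 libraries in each of 4 groups: 5/6 nephrectomy (NX) with JV101, NX with saline, sham surgery with JV101, and sham surgery with saline. The title speaks of telomere recapping by gene therapy in cardiorenal syndrome. The labels do not say what JV101 contains, which heart chambers the cells came from, or whether replicates were separate animals, so the p-values below measure only the spread between these samples.

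Atrial and ventricular muscle cells build their contractile machinery from different isoforms. Adult atria use their own regulatory and essential myosin light chains, restrain the calcium pump SERCA with sarcolipin, and store atrial natriuretic peptide in secretory granules, while ventricles use *Myl2*, *Myl3* and phospholamban. Some of these genes are not fixed to a chamber: *Myl4* is also made by the fetal ventricle, *Nppa* by the fetal and the loaded ventricle, and *Sln* by skeletal muscle.

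*Myl7* stood at 110.8, 145.8 and 287.5 on that scale (lowest, median and highest) in the atrial-rich libraries, and at 3.11, 24.96 and 61.9 in the atrial-poor ones. The library just inside the limit was NX JV101 replicate 1, at 110.8, and the library just outside was NX saline replicate 1, at 61.9. After TMM scaling, which sets library sizes by the bulk of the genes and underlies every CPM (counts per 1000000) given from here on, the split was the same, with 94.2, 130.5 and 239.8 CPM in the atrial-rich and 3.93, 29.1 and 64.2 CPM in the atrial-poor libraries. Since these values chose the libraries, differences between the sets are a description, and no test is given for them. In bulk RNA, fewer atrial cells and less of these transcripts per cell cannot be told apart.

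The split did not follow the groups evenly. All 3 NX JV101 libraries were atrial-rich and all 3 NX saline libraries atrial-poor, while sham JV101 had 1 atrial-rich library of 3 and sham saline 2 of 3. *Myl7* averaged 150.7 ± 68.2 CPM in NX JV101, 40.8 ± 21.8 in NX saline, 66.4 ± 72.2 in sham JV101 and 113 ± 118 in sham saline (SD, n = 3 each). Both sham groups held libraries of both sets.

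Total counts were 30.1 to 33.8 M in the atrial-rich libraries and 26.4 to 32.7 M in the atrial-poor ones. The 13 mitochondrially encoded protein genes made up 42.6 ± 5.72% of the counts in the atrial-rich and 55.8 ± 10.5% in the atrial-poor libraries (SD, n = 6 each). That share and the total count moved with *Myl7* (Pearson r with its log2 CPM of −0.69 and 0.68 over 12 libraries), and their part in the differences below was not tested. The labels give no date or batch.

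The other given markers divided the libraries as *Myl7* did. *Myl4*, the essential light chain of the atria, had 142.5, 185 and 345 CPM in the atrial-rich libraries against 7.64, 45.1 and 93.5 CPM in the atrial-poor ones. *Sln*, which encodes sarcolipin, had 30.9, 41.0 and 72.8 CPM against 0.72, 8.86 and 18.5 CPM. *Nppa*, the precursor of atrial natriuretic peptide, had 627, 794 and 1332 CPM against 24.7, 194 and 352 CPM. For each of these 3 genes every atrial-rich library lay above every atrial-poor one, and sham saline replicate 3 was the highest of all 12. The lowest were sham JV101 replicate 2 for *Sln* and *Myl4*, and sham saline replicate 2 for *Nppa*. The log2 fold, the mean log2 CPM of the atrial-rich minus that of the atrial-poor libraries, was 2.71 for *Myl4*, 3.14 for *Sln* and 2.75 for *Nppa*, against 2.85 for *Myl7* itself.

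The 3 genes followed *Myl7* both across and within the sets. Over the 12 libraries the Pearson r of log2 CPM with *Myl7* was 0.996 for *Myl4* (Spearman rho 0.99), 0.99 for *Sln* (rho 0.99) and 0.97 for *Nppa* (rho 0.94). Without sham JV101 replicate 2 and sham saline replicate 2, the libraries farthest from the median of *Myl7*, r was 0.99, 0.96 and 0.93 for these 3 genes. Within the 6 atrial-rich libraries r was 0.98 for *Myl4*, 0.995 for *Sln* and 0.82 for *Nppa*, and within the 6 atrial-poor ones 0.99, 0.97 and 0.92 in the same order. These correlations are descriptions over libraries that share 1 scaling. *Myl4* kept the closest proportion, with 1.28 to 1.67 counts per *Myl7* count in the atrial-rich and 1.33 to 1.94 in the atrial-poor libraries. *Sln* stood at 0.300 to 0.329 counts per *Myl7* count in the atrial-rich libraries and spread from 0.183 to 0.401 in the atrial-poor ones. *Nppa* was less tightly tied, with 4.12 to 8.49 counts per *Myl7* count in the atrial-rich and 3.78 to 10.7 in the atrial-poor libraries.

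**Figure D1:**
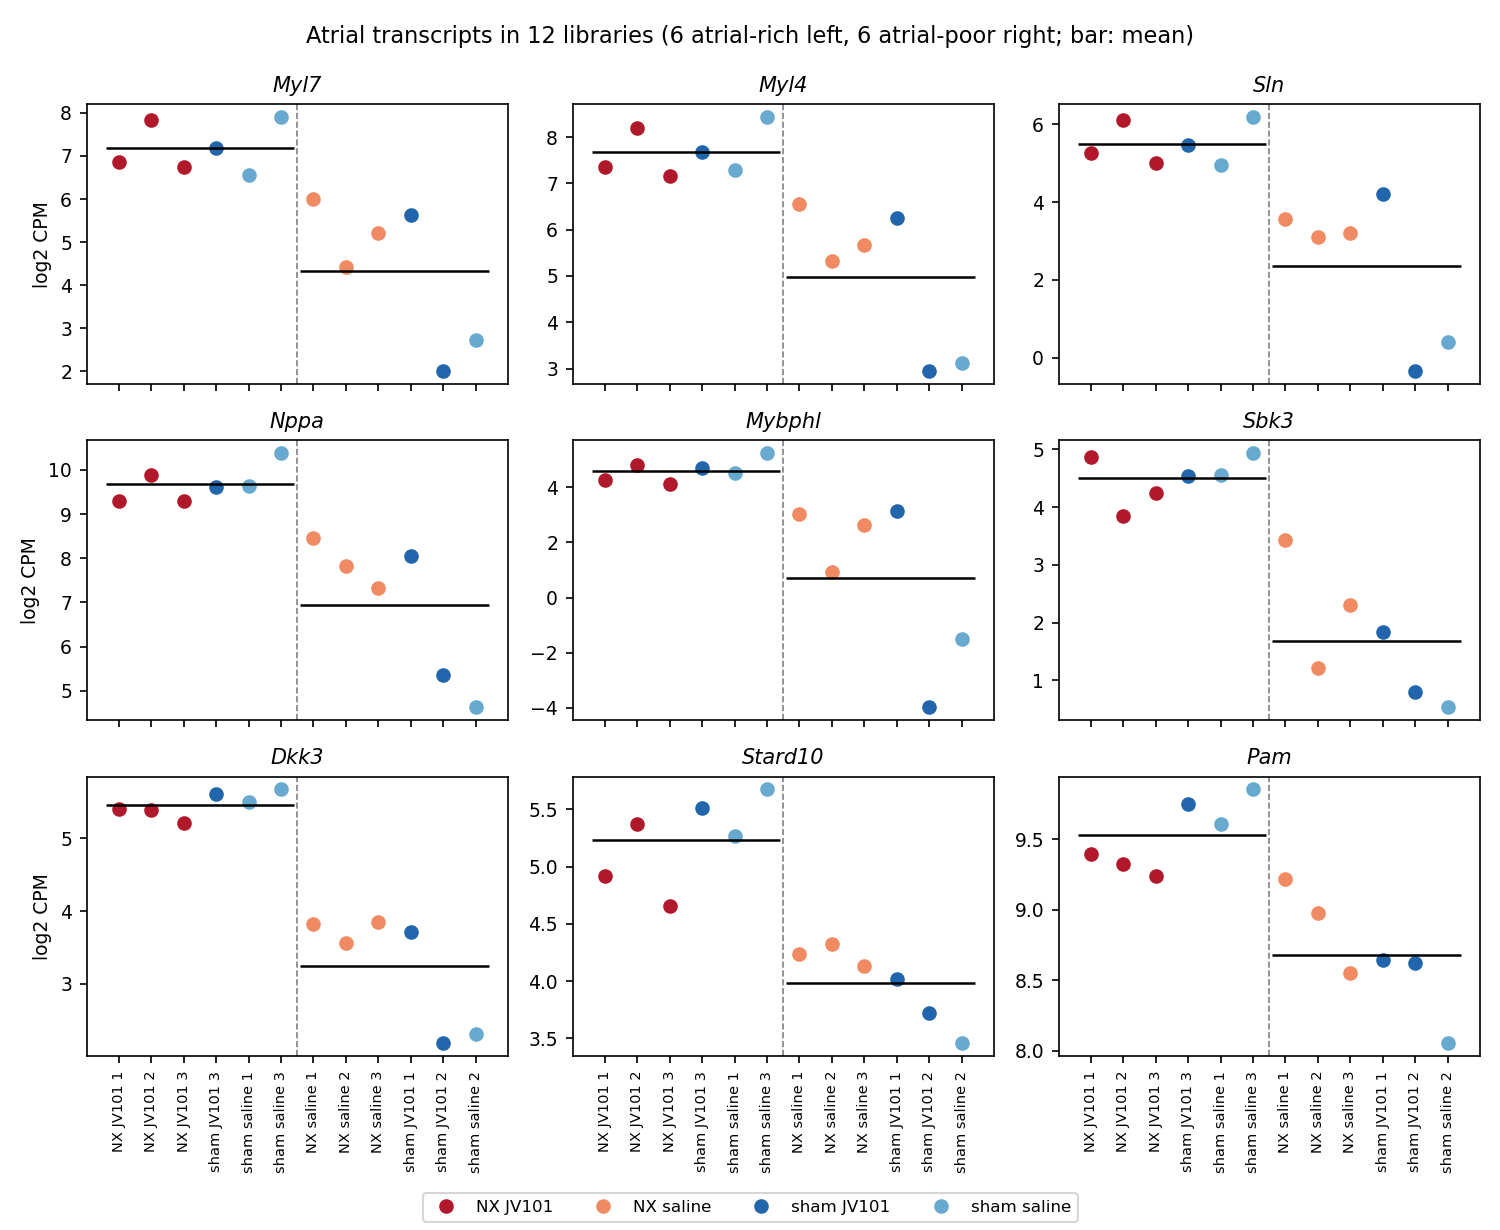
Log2 CPM (TMM, prior count 2) of 9 atrial transcripts in each library, the 6 atrial-rich to the left of the dashed line and the 6 atrial-poor to the right; points are libraries coloured by group and bars are set means. In all 9 panels every point on the left lies above every point on the right, and sham JV101 replicate 2 and sham saline replicate 2 fall far below the other libraries for Myl7, Myl4, Sln, Nppa and Mybphl.

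The 250 bases before the start of 4 genes are shown, taken from the 7 genes *Myl7*, *Myl4*, *Sln*, *Nppa*, *Mybphl*, *Sbk3* and *Dkk3*. Of these 7, 5 were matched to a RefSeq promoter (GRCm38.p6), as were 3 of the 4 markers. Among the 5 matched, the 4 shown are *Myl7* and the genes with the highest r with it. Each is written in the direction of its gene, and ends at the base before the start. Capitals mark matches, on either strand, to GATAA (the site of GATA factors), TCACACC (T-box factors), AGGTCA (an element of NR2F receptors) or the CArG box of serum response factor; no matches overlap.
Myl7, chr11:5898783-5899032, minus strand: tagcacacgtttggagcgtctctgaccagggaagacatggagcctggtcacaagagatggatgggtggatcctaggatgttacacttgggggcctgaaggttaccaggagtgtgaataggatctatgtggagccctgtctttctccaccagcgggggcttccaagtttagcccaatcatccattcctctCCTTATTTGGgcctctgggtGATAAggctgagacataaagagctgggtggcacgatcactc
Nppa, chr4:148000472-148000721, plus strand: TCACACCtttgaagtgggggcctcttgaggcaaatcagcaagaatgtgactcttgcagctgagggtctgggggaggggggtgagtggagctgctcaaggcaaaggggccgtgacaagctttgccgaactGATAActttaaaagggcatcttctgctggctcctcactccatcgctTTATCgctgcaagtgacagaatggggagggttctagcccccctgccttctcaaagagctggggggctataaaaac
Myl4, chr11:104550413-104550662, plus strand: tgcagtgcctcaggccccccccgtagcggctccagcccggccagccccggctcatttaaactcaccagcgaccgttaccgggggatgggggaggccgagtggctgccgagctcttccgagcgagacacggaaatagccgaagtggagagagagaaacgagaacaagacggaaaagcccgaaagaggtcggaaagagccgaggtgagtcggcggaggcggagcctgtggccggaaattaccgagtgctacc
Mybphl, chr3:108364661-108364910, plus strand: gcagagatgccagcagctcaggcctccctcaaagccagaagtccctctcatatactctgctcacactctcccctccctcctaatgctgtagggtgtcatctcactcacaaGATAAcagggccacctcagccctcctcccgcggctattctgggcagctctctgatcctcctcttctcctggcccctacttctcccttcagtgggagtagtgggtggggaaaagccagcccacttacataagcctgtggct

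The *Myl7* window holds a GATAA that begins 41 bases before the start and a CArG box that begins 61 bases before it. The *Nppa* window holds GATAA at 121 bases, its reverse at 75 and TCACACC at 250, and the *Mybphl* window holds GATAA at 140. The *Myl4* window holds none of the 4 motifs. Of 27025 promoter windows of the same length, 23.0% hold GATAA, 3.31% TCACACC, 13.8% AGGTCA and 1.4% a CArG box. A match describes the letters and not a site in use, and the windows' part in the values was not tested.

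The whole contractile list of the atria, 6 genes, was higher without overlap between the sets, with a median log2 fold of 2.83. The 6 and the median include *Myl7*, whose separation is the rule that chose the libraries. Over all 14412 genes that passed the filter, 0.5% were higher without overlap and 0.167% lower. *Mybphl*, a myosin-binding protein H-like protein of atria and conduction tissue, had the largest difference, with 17.4, 24.4 and 37.7 CPM in the atrial-rich against 0, 3.95 and 8.67 CPM in the atrial-poor libraries and a log2 fold of 3.90. Sham JV101 replicate 2 held 0 *Mybphl* counts, which allows up to 0.136 CPM (3 counts, counting error only), so the size of that log2 fold depends on the prior count. Its log2 CPM had a slope of 1.46 on that of *Myl7*, against 0.95 for *Myl4*, 1.09 for *Sln* and 0.92 for *Nppa*. The steeper slope means that *Mybphl* per *Myl7* count was lower where *Myl7* was lowest: 0.121 to 0.244 in the atrial-rich libraries and 0 to 0.174 in the atrial-poor ones.

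The muscle kinases *Sbk3* and *Sbk2* completed that list and followed *Myl7* less closely. *Sbk3* had 14.4, 23.4 and 30.5 CPM in the atrial-rich against 1.39, 2.90 and 10.7 CPM in the atrial-poor libraries, a log2 fold of 2.81 and an r of 0.91 with *Myl7*. Within the 6 atrial-rich libraries its r was −0.14: NX JV101 replicate 2, second highest in *Myl7* at 229 CPM, was the lowest in *Sbk3* at 14.4 CPM. *Sbk2* had 6.27, 8.51 and 14.5 CPM against 2.53, 3.26 and 5.45 CPM, a log2 fold of 1.41 and an r of 0.77. The sets did not overlap for either kinase, but *Sbk2* varied little along the range of *Myl7*, with a slope of 0.35.

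The counts of an atrial isoform relative to its ventricular partner compare libraries, not the levels of the 2 genes, whose lengths differ. *Myl7* had 21.9, 26.6 and 46.6 counts per 1000 *Myl2* counts in the atrial-rich libraries, against 0.720, 6.96 and 11.2 in the atrial-poor ones. *Myl4* had 47.0, 58.5 and 102.5 counts per 1000 *Myl3* counts, against 2.26, 16.9 and 30.6. *Sln* had 8.41, 10.4 and 28.6 counts per 1000 counts of *Pln*, which encodes phospholamban, against 0.195, 2.84 and 7.10. None of these 3 ratios, which need no library scaling, overlapped between the sets. The first holds *Myl7*, which chose the sets, over a gene that differed little between them, so its separation follows from the choice. *Mybphl* per 1000 counts of *Mybpc3*, the cardiac myosin-binding protein C, was also higher in every atrial-rich library, at 7.14 to 18.2 against 0 to 5.47.

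Of the 9 peptide and secretion genes tested, *Nppa*, *Dkk3* and *Pam* were higher without overlap and the other 6 overlapped; the median log2 fold was 0.58. *Dkk3*, a secreted glycoprotein of the Dickkopf family, had 36.8, 43.8 and 51.0 CPM in the atrial-rich against 4.47, 12.4 and 14.3 CPM in the atrial-poor libraries. Its log2 fold was 2.22, and the atrial-rich libraries differed among themselves less in *Dkk3* (44.3 ± 5.11 CPM, SD) than in *Myl7* (155 ± 63.8 CPM). *Dkk3* had an r of 0.95 with *Myl7* over all libraries, 0.44 within the atrial-rich and 0.96 within the atrial-poor ones.

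*Pam*, the granule membrane enzyme that amidates peptides, had 605, 728 and 926 CPM in the atrial-rich against 265, 398 and 594 CPM in the atrial-poor libraries. The sets just missed each other, with NX JV101 replicate 3 at 605 CPM and NX saline replicate 1 at 594. The log2 fold of *Pam* was 0.85, its r 0.83 and its slope 0.24. In sham JV101 replicate 2, where *Myl7* was at 3.93 CPM, *Pam* was still at 395 CPM, so that *Pam* per *Myl7* count ranged from 2.80 to 8.30 in the atrial-rich and from 8.05 to 100.4 in the atrial-poor libraries.

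*Nppb*, which encodes B-type natriuretic peptide, did not divide the libraries. It had 76.8, 116 and 179 CPM in the atrial-rich against 54.0, 105 and 206 CPM in the atrial-poor libraries, a log2 fold of 0.11 and an r of 0.04 with *Myl7*. The highest *Nppb* value, 205.9 CPM, was in sham JV101 replicate 2, the library lowest in *Myl7*. The convertase *Corin*, which cleaves the precursor of atrial natriuretic peptide, was at a log2 fold of 0.29, and *Pcsk6*, which activates corin, at −0.25. Both overlapped between the sets, as did *Adm* (adrenomedullin), at −0.09, and the vessel growth factor *Angpt1*, at 0.58. Scaled by column totals, *Pcsk6* and *Adm* turned positive, at 0.11 and 0.27.

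*Bmp10*, a growth factor made mainly in the right atrium, was high in some atrial-rich libraries and not in others. It had 6.10, 0.283 and 6.71 CPM in NX JV101 replicates 1, 2 and 3, 1.68 CPM in sham JV101 replicate 3, and 2.99 and 1.30 CPM in sham saline replicates 1 and 3. The atrial-poor values were 0.095, 2.39 and 1.62 CPM in NX saline replicates 1, 2 and 3, 0 and 0.316 CPM in sham JV101 replicates 1 and 2, and 0.115 CPM in sham saline replicate 2. The sets overlapped despite a log2 fold of 2.53, and r with *Myl7* was 0.36. NX JV101 replicate 2 had 12 *Bmp10* counts beside 9729 *Myl7* counts, and NX saline replicate 2 had 83 beside 738.

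None of the 10 atrial ion channel and junction genes separated the sets, and their median log2 fold was 0.44, with 9 positive. The T-type calcium channel *Cacna1h* came nearest, with 5.82, 9.72 and 13.6 CPM in the atrial-rich against 3.06, 4.16 and 6.50 CPM in the atrial-poor libraries, a log2 fold of 1.17 and an r of 0.72. *Gja5*, which encodes the atrial and conduction connexin 40, had 3.29, 5.86 and 8.57 CPM against 2.19, 3.24 and 3.58 CPM, and only sham JV101 replicate 3, the lowest atrial-rich library, lay within the atrial-poor range. Its r was 0.82. The acetylcholine-gated potassium channel subunits *Kcnj3* and *Kcnj5* had log2 folds of 0.72 and 0.50 with an r of 0.35 and 0.24. Their muscarinic receptor *Chrm2* was at 0.41 with an r of 0.13. *Kcna5*, the ultrarapid potassium channel, was at −0.32 and ranged from 4.04 to 53.9 CPM within the atrial-rich libraries; scaled by column totals it was at 0.04.

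The transcription factors that set atrial identity showed no such split. *Nr2f2*, the receptor that holds the atrial program in the mouse, had 2.67, 6.16 and 11.2 CPM in the atrial-rich against 4.79, 7.59 and 9.71 CPM in the atrial-poor libraries. Its log2 fold was −0.21 and its sets overlapped fully; *Nr2f2* is also made by endothelial and stromal cells. *Nr2f1* was at 0.23, the Notch target *Hey1* at −0.04 and the T-box factor *Tbx5* at 0.70 with an r of 0.56. Scaled by column totals *Nr2f2* was at 0.15 and *Hey1* at 0.32. *Stard10*, a lipid transfer protein listed with them, was higher without overlap, with 25.2, 40.0 and 51.0 CPM against 10.9, 16.8 and 19.98 CPM, a log2 fold of 1.25 and an r of 0.88.

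Of 10 pacemaker and conduction genes tested, 1 was higher without overlap. It was *Cacna2d2*, a calcium channel subunit, with 2.26, 2.76 and 3.53 CPM in the atrial-rich against 0.362, 0.909 and 1.93 CPM in the atrial-poor libraries and a log2 fold of 1.54. The pacemaker channel *Hcn4* had 1.44, 4.03 and 6.98 CPM against 1.90, 3.21 and 5.06 CPM, which overlap, and an r of −0.08. The nodal T-box factor *Tbx3* was at −0.49. The median of the list was 0.33, and *Isl1* and *Vsnl1*, markers of the sinus node, had at most 4 counts and 1 count in a library.

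Over all genes tested, 23 (0.16%) were at least 2-fold higher without overlap and 9 (0.0624%) at least 2-fold lower. The median log2 fold over the 14412 genes was −0.0037, and 49.2% were positive; scaled by column totals in place of TMM, the median was 0.34 and 86.7% were positive. Of the 23, 9 belong to the atrial lists, *Myl7* included, 9 had a mean of at least 5 CPM and 3 are unnamed gene models. An r of at least 0.9 with *Myl7* was reached by 14 of the 23 and by 18 genes (0.125%) in all, *Myl7* itself counted. Without sham JV101 replicate 2 and sham saline replicate 2 it was reached by 10 genes (0.0694%). The sets contain 3 contrasts that share no library: within sham saline, within sham JV101, and NX JV101 against NX saline. Of the 23, 13 were at least 2-fold higher in each of the 3. For a gene without overlap the sign in each contrast is fixed in advance, so only the size can differ. Of all genes, 28 (0.194%) were at least 2-fold higher in each of the 3 and 43 (0.298%) at least 2-fold lower. Those 13 are *Myl7*, *Myl4*, *Sln*, *Nppa*, *Mybphl*, *Sbk3*, *Dkk3*, *Tmem163*, *Sds*, *Fgf12*, *Hamp*, *Cilp2* and *Fcamr*.

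**Figure D2:**
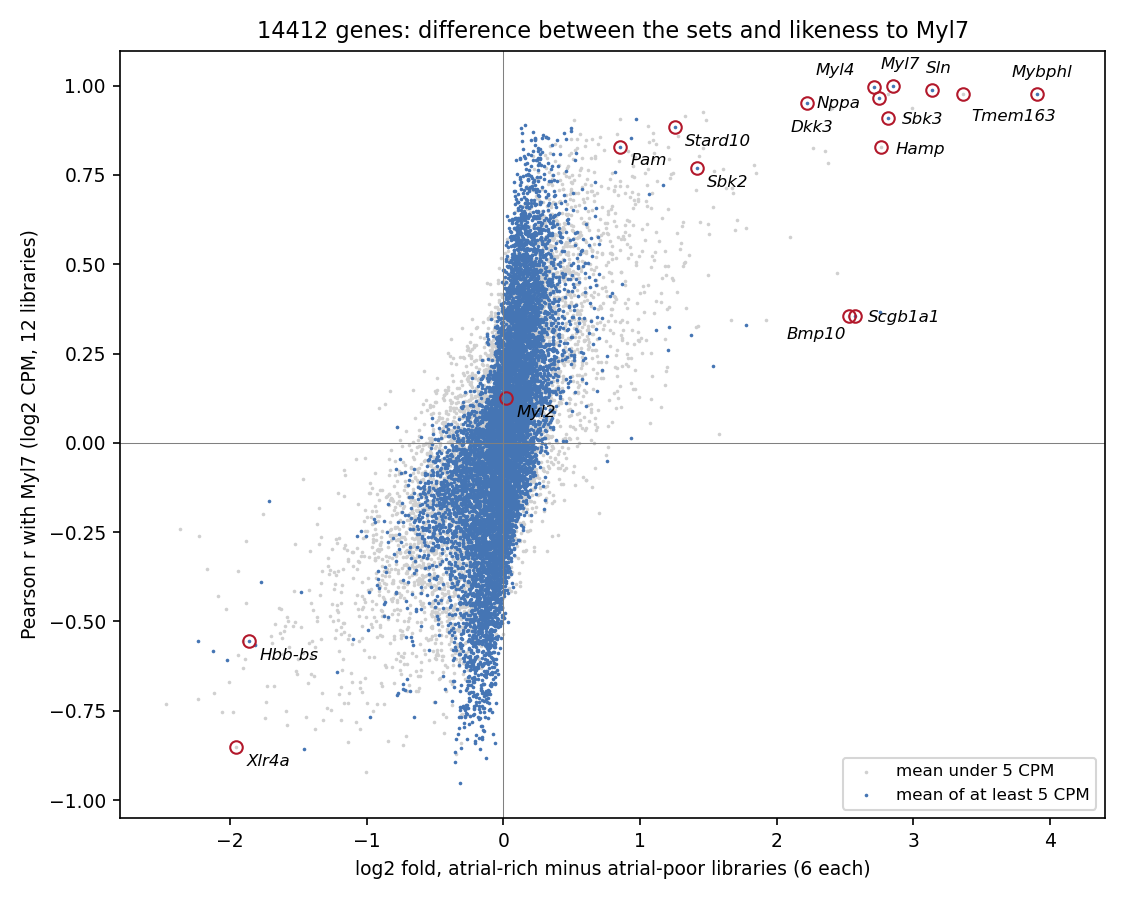
Each point is 1 of 14412 genes, with the log2 fold of the atrial-rich minus the atrial-poor libraries on the x axis and the Pearson r with Myl7 over 12 libraries on the y axis; blue points average at least 5 CPM and red rings mark named genes. Myl4, Sln, Nppa, Mybphl, Sbk3, Dkk3 and Tmem163 sit with Myl7 at the upper right, apart from the bulk of genes, while Bmp10 and the airway gene Scgb1a1 have a large log2 fold with an r near 0.36.

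The 3 separate contrasts gave the differences side by side. The log2 fold of *Nppa* was 5.38 within sham saline, 2.92 within sham JV101 and 1.62 for NX JV101 minus NX saline. For *Myl4* the values were 4.74, 3.08 and 1.73, and for *Mybphl* 6.39, 5.12 and 2.20, in the same order. *Myl7* itself had 4.51, 3.37 and 1.94. For *Nppa*, *Myl4* and *Mybphl* the order of the 3 contrasts was that of *Myl7*.

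Several genes outside the atrial lists differed between the sets at low levels, and those in this paragraph were named after their values were seen. *Tmem163*, a zinc transporter, had 3.58, 5.23 and 7.31 CPM in the atrial-rich against 0, 0.934 and 1.23 CPM in the atrial-poor libraries, a log2 fold of 3.37 and an r of 0.98. *Fgf12*, an intracellular regulator of sodium channels, had 3.71, 4.91 and 9.41 CPM against 0.045, 1.36 and 2.73 CPM, a log2 fold of 2.82 and an r of 0.98. Neither overlapped between the sets, and their slopes of 1.11 and 1.03 on *Myl7* were near those of *Sln* and *Myl4*. *Sds*, which encodes serine dehydratase, reached 2.37 CPM at most, with a log2 fold of 2.99 and an r of 0.94. *Cilp2*, a matrix protein of the cartilage intermediate layer family, was at 2.40 with an r of 0.94, and *Lmntd1*, a lamin tail domain protein, at 2.39 with an r of 0.93. *Hamp*, which encodes the iron hormone hepcidin and has the near-identical copy *Hamp2*, had a log2 fold of 2.76 at 0.307 to 1.44 CPM against 0 to 0.23 CPM. *Fcamr* (2.35), *Slc7a4* (1.54), *Plekha7* (1.33) and *Tmem220* (1.12) averaged under 3 CPM each, and none overlapped between the sets. Their r with *Myl7* was 0.82, 0.66, 0.91 and 0.84 in that order, and that of *Hamp* 0.83. Within the 6 atrial-rich libraries r was 0.96 for *Tmem163* and *Fgf12*, 0.56 for *Sds*, 0.17 for *Cilp2* and 0.04 for *Lmntd1*. There it was −0.02 for *Hamp*, 0.80 for *Fcamr*, −0.64 for *Slc7a4*, 0.24 for *Plekha7* and −0.50 for *Tmem220*.

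Among genes of at least 5 CPM, numbering 8943, the 10 most like *Myl7* were *Myl4*, *Sln*, *Mybphl*, *Nppa*, *Dkk3*, *Sbk3*, *Scd4*, *Surf1*, *Stard10* and *Fgfrl1*, with an r of 0.996 to 0.88 over 12 libraries. *Scd4*, a stearoyl-CoA desaturase of the heart, had an r of 0.91 and overlapped between the sets at 5.73, 6.72 and 9.55 CPM in the atrial-rich against 2.48, 3.38 and 6.40 CPM in the atrial-poor libraries. *Surf1*, which helps assemble cytochrome oxidase, had an r of 0.89 with a log2 fold of only 0.16. *Fgfrl1*, an FGF receptor without a kinase domain, had an r of 0.88 and a log2 fold of 0.50. By the spread of log2 CPM over the 12 libraries, *Mybphl* ranked 5, *Sln* 8, *Myl7* 10, *Nppa* 13, *Myl4* 14 and *Sbk3* 17 of the 8943 genes.

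Further genes of at least 5 CPM that were higher without overlap differed by less than 2-fold. The largest were *Aldh1b1*, a mitochondrial aldehyde dehydrogenase, with 11.9, 14.9 and 18.6 CPM in the atrial-rich against 6.81, 8.23 and 11.8 CPM in the atrial-poor libraries and a log2 fold of 0.82, and *Myorg*, a glycosidase, at 0.56. *Mllt11*, *Pbxip1* and the protease inhibitor *Spint2* were at 0.54, 0.53 and 0.52. Their r with *Myl7* ranged from 0.53 for *Myorg* to 0.79 for *Spint2*.

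Genes that were lower without overlap had small differences or very low levels. The 9 that were at least 2-fold lower averaged at most 0.747 CPM; they include *Xlr4a*, *Fcmr*, *Slc6a4* and *Cd2*, named after their values were seen. That count depended on single libraries: it was 33 without NX JV101 replicate 2, 23 without NX saline replicate 1, 16 without sham saline replicate 1 and likewise 16 without sham JV101 replicate 1, 15 without sham saline replicate 3 and 14 without sham JV101 replicate 2. Among the 8943 genes of at least 5 CPM, 8 were lower and 50 higher without overlap. Of all 14412 genes, 0.167% were lower and 0.5% higher without overlap. The 8, with log2 fold, were *Iws1* (−0.31), *Cdan1* (−0.29), *Rab3gap2* (−0.23), *Taf5l* (−0.22), *Agfg1* (−0.22), *Smchd1* (−0.22), *Hnrnpc* (−0.20) and *Snrpa1* (−0.18). *Iws1*, an RNA polymerase elongation factor, had 11.8, 13.5 and 15.2 CPM in the atrial-rich against 15.2, 16.8 and 18.5 CPM in the atrial-poor libraries. Scaled by column totals in place of TMM, all 8 turned positive, at 0.04 to 0.18, beside a median of all genes of 0.34.

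Ventricular and shared muscle genes differed little between the sets. *Myl2*, the ventricular regulatory light chain, had 4100, 4909 and 5430.1 CPM in the atrial-rich against 3999.7, 4489.8 and 6220 CPM in the atrial-poor libraries, which overlap fully, with a log2 fold of 0.02. *Myl3*, the ventricular essential light chain, was at 0.12, *Pln* at 0.09, and *Hey2* at −0.01 (0.34 when scaled by column totals). Of 16 ventricular genes 13 were positive, none separated the sets, the median was 0.14, and the highest r with *Myl7* was 0.44, for the ventricular factor *Irx4*. The 19 genes shared by all heart muscle cells had a median of 0.10, and none separated the sets; *Myh6*, the main myosin of the adult mouse heart, was at 0.17. Within sham JV101 the medians of both lists were larger, at 0.68 for ventricular and 0.45 for shared genes.

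**Figure D3:**
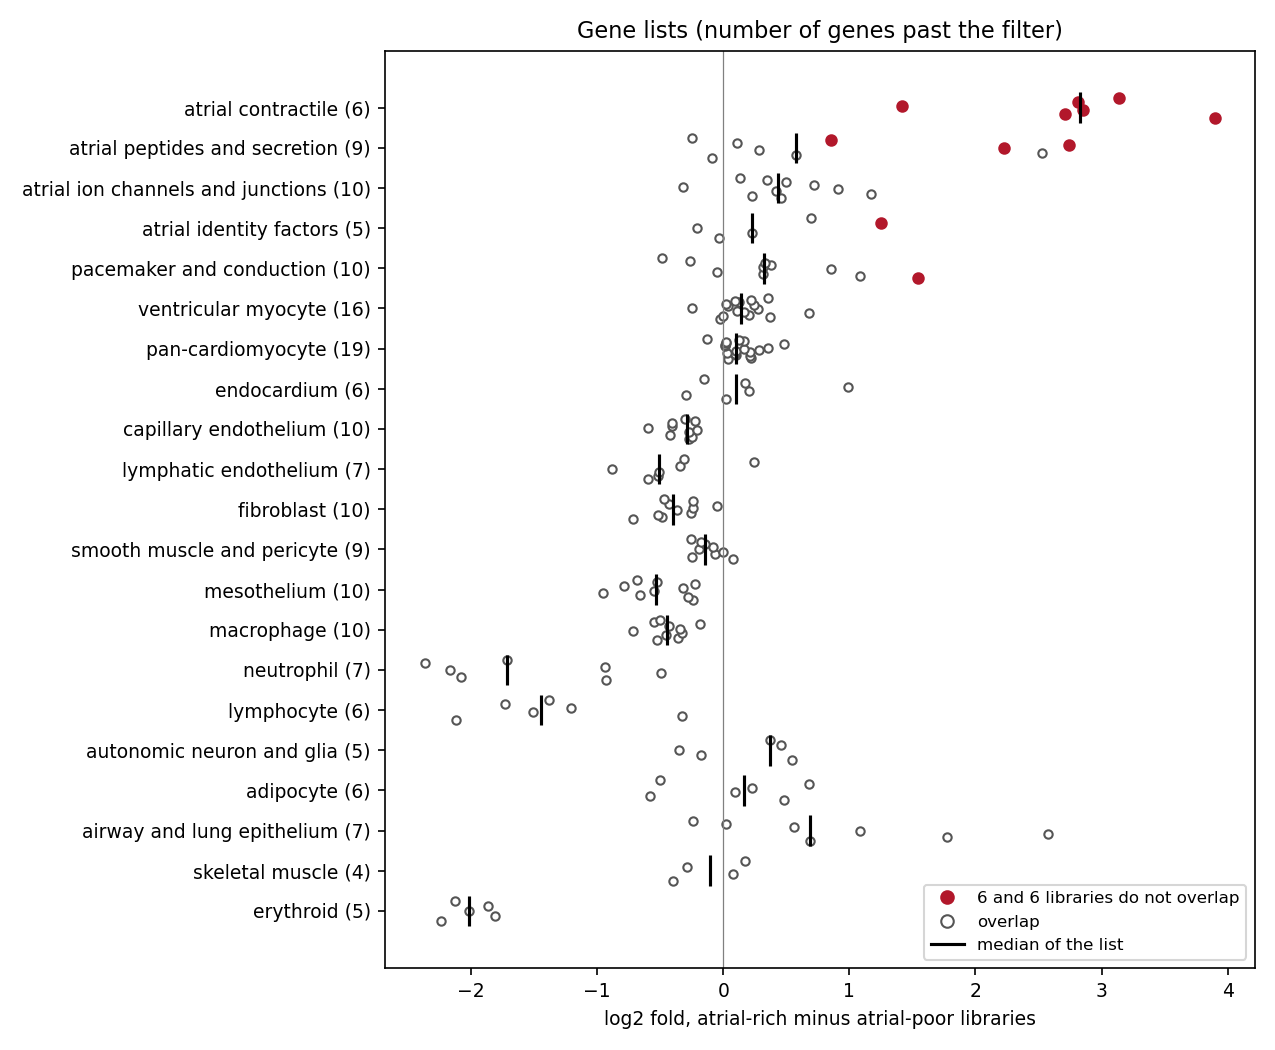
Log2 fold, atrial-rich minus atrial-poor libraries, of each gene in 21 lists (number of tested genes in brackets); filled red points are genes whose 6 and 6 libraries do not overlap and black bars are list medians. All 6 atrial contractile genes, among them Myl7, which chose the sets, are filled and lie between 1.41 and 3.90. Ventricular and pan-cardiomyocyte genes gather near 0, and erythroid, neutrophil and lymphocyte genes lie to the left.

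The listed markers of other cells also differed between the sets, in each case with overlap, and their part in the results was not tested. Erythroid genes were lower, with all 5 negative, a median log2 fold of −2.02 and summed levels of 17.3, 62.1 and 262 CPM in the atrial-rich against 80.1, 204 and 718 CPM in the atrial-poor libraries. The globin gene *Hbb-bs* had 7.82, 31.1 and 132 CPM against 40.3, 99.9 and 349.5 CPM; globin genes have near-identical copies that counting can split. The 7 neutrophil genes had a median of −1.72 and summed to 2.82, 7.36 and 14.9 CPM against 7.97, 20.1 and 46.8 CPM. The 6 lymphocyte genes had a median of −1.44 and summed to 1.47, 3.00 and 5.01 CPM against 3.42, 6.51 and 16.9 CPM. Over the 3 separate contrasts (within sham saline, within sham JV101, NX JV101 minus NX saline) the medians were −3.15, −3.55 and −1.23 for erythroid, −1.73, −1.38 and −1.95 for lymphocyte, and 0.50, −2.68 and −1.17 for neutrophil genes. No gene of these 3 blood cell lists separated the sets, and no marker of any list was at 0 in all 12 libraries. *Cd2* and *Fcmr*, which were lower without overlap, are not in these lists.

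Markers of heart wall cells had no common direction over the 3 separate contrasts. The medians over all 12 libraries were −0.29 for capillary endothelium, −0.40 for fibroblasts, −0.15 for smooth muscle and pericytes, −0.54 for mesothelium and −0.44 for macrophages, and none of their genes separated the sets. Scaled by column totals, which moved the median of all genes to 0.34, these medians were 0.07 for capillary endothelium, −0.04 for fibroblasts, 0.21 for smooth muscle and pericytes, −0.18 for mesothelium and −0.09 for macrophages, so that the sign of the first and the third depends on the scaling. Within sham JV101 the medians under TMM were −2.01 for capillary endothelium, −1.85 for fibroblasts, −2.11 for smooth muscle and pericytes, −0.17 for mesothelium and −1.75 for macrophages. For NX JV101 minus NX saline they were 0.22, 0.26, 0.46, −1.09 and 0.01 in that order, and within sham saline 0.05, −0.19, 0.17, 0.22 and −0.38. Fibroblast genes summed to 516, 1369 and 2914 CPM in the atrial-rich against 1050, 1438 and 2734 CPM in the atrial-poor libraries. The collagen-binding proteoglycan *Dcn*, a fibroblast marker, had an r of 0.01 with *Myl7*. Skeletal muscle genes, relevant because that tissue also makes *Sln*, summed to 1.2025, 1.54 and 2.10 CPM against 0.859, 2.04 and 2.82 CPM, and *Myh1*, *Myh2* and *Pvalb* were below the filter.

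Airway transcripts marked libraries of both sets. The 9 airway and lung genes in the table summed to 143 CPM in NX JV101 replicate 1, 92.9 in sham JV101 replicate 3 and 290 in sham saline replicate 3, and to 388 and 185 CPM in the atrial-poor NX saline replicates 2 and 3. They summed to at most 6.53 CPM in the other 7 libraries. *Scgb1a1*, the secretoglobin of airway club cells, overlapped fully between the sets, with 0.025 to 42.7 CPM in the atrial-rich against 0 to 108 CPM in the atrial-poor libraries. Its log2 fold, a difference of mean logs, was 2.57, while its mean CPM ran the other way, at 17.2 in the atrial-rich and 31.4 in the atrial-poor libraries. The list median was 4.41 within sham saline, 5.11 within sham JV101 and −2.64 for NX JV101 minus NX saline.

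**Figure D4:**
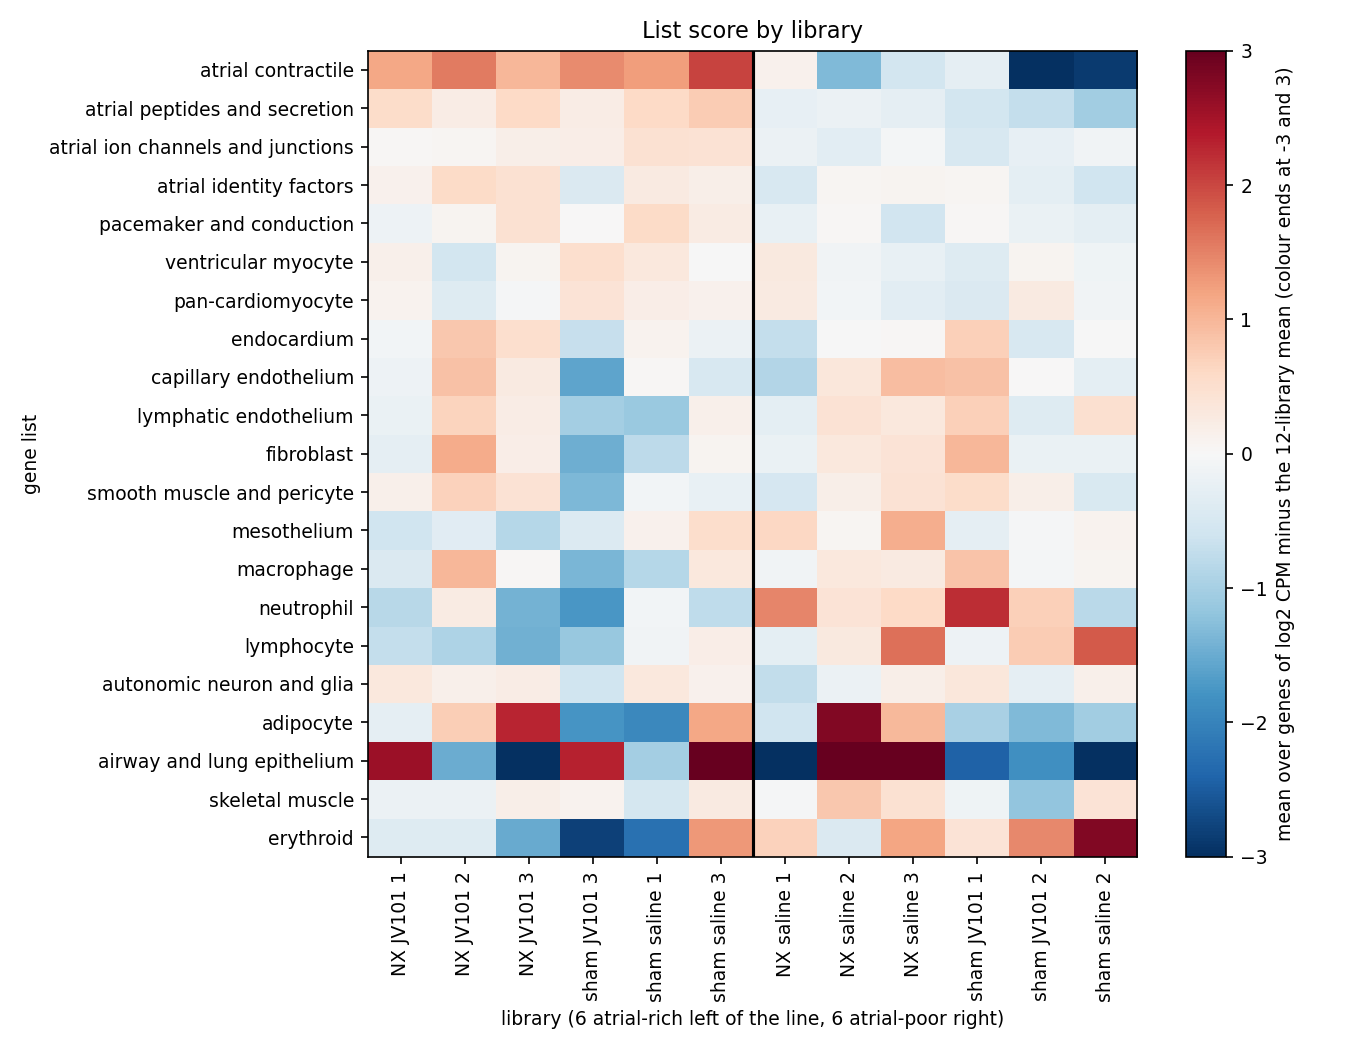
Score of each gene list in each library, the mean over its tested genes of log2 CPM minus the 12-library mean (red above, blue below, colour ends at −3 and 3), with the 6 atrial-rich libraries left of the line and the 6 atrial-poor right. The atrial contractile score runs from 0.99 to 2.03 on the left and from −3.55 to 0.13 on the right, the ventricular row is nearly white, and the airway row alternates within both sets.

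The labelled groups were compared with edgeR over all 14412 genes. No gene passed an adjusted p of 0.05 in any of 4 comparisons (0.0% called), with 345 genes at an unadjusted p under 0.05 for NX JV101 against NX saline, 299 for NX JV101 against sham JV101, 524 for NX saline against sham saline and 245 for sham JV101 against sham saline. For NX JV101 against NX saline, DESeq2 called 8 genes, all lower (0.0555%), among them *Krt19*, *Lrp2*, *Lrrn4*, *Msln*, *Muc16*, *Spib* and *Upk3b*, mainly markers of mesothelium and epithelium; they were named after their values were seen. It called 1 gene, *Niban3*, lower in NX saline than in sham saline (0.00694%), and none of the 9 is an atrial gene.

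Since the NX libraries split by the *Myl7* limit exactly along the injection, atrial share and JV101 cannot be told apart in them. *Nppa* had 632, 946 and 627 CPM in the NX JV101 libraries against 352, 228 and 161 CPM in the NX saline libraries. The groups did not overlap, and the edgeR log2 fold change of 1.57 (SE 1.08) had an adjusted p of 1. *Sln* had 38.1, 69.5 and 32.2 CPM in NX JV101 against 11.7, 8.51 and 9.21 CPM in NX saline, with an edgeR log2 fold change of 2.25 (SE 1.17, adjusted p = 1). *Myl4* was at 1.71 (SE 1.09) and *Mybphl* at 2.00 (SE 1.33), neither called.

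The same comparison with the log2 CPM of *Myl7* as a covariate is a description only: *Myl7* chose the libraries and these genes are shown because they follow it, so that smaller differences follow from the choice. For NX JV101 against NX saline the log2 fold change became −0.25 (SE 0.44) for *Nppa*, −0.15 (SE 0.18) for *Myl4*, −0.01 (SE 0.26) for *Sln* and −0.46 (SE 0.52) for *Mybphl*. *Sbk3* kept 0.61 (SE 0.56) of 1.80 (SE 1.03), and *Dkk3* 0.37 (SE 0.34) of 1.59 (SE 0.80). Each of these values is within 2 SE of 0, and no gene passed with the covariate either (290 at an unadjusted p under 0.05). *Nppb*, which did not follow *Myl7*, was at 0.29 (SE 0.51) without and 0.30 (SE 0.58) with the covariate.

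For NX saline against sham saline the values of the sham libraries spread widely. *Nppa* had 352, 228 and 161 CPM in NX saline against 799, 24.7 and 1332 CPM in sham saline; the sham libraries lay on both sides of the NX ones. Its edgeR log2 fold change was −1.54 (SE 1.08, adjusted p = 0.994), and 0.10 (SE 0.41) with *Myl7* as a covariate. *Myl4* was at −1.48 (SE 1.09) without and 0.05 (SE 0.17) with it. For sham JV101 against sham saline *Nppa* had −0.98 (SE 1.06) without and 0.08 (SE 0.43) with the covariate.

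**Figure D5:**
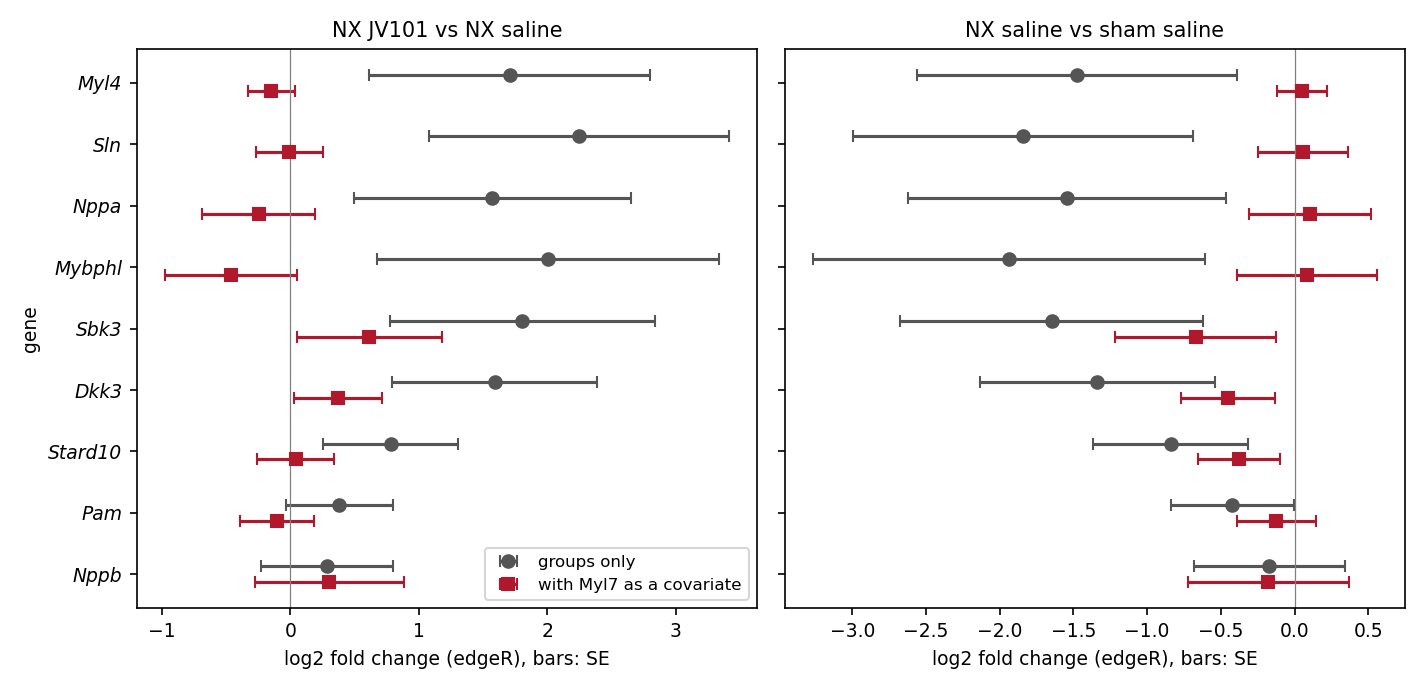
EdgeR log2 fold change of 9 genes for NX JV101 against NX saline (left) and NX saline against sham saline (right), with bars of 1 SE, from the fit on groups only (grey circles) and with log2 CPM of Myl7 as a covariate (red squares). For Myl4, Sln, Nppa and Mybphl the grey values of 1.57 to 2.25 on the left and −1.94 to −1.48 on the right move to between −0.46 and 0.10 with the covariate, as the choice of genes that follow Myl7 entails; Nppb is at 0.29 and 0.30 on the left.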

How the data were processed

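Gene counts, and FPKM made from them, were deposited by the authors, 1 column for each of 12 libraries of isolated cardiomyocytes. The submitters' processing notes name fastp, HISAT2, HTSeq and the build GRCm39, with tool versions, annotation and strand use not given in the sources used here. Deposited counts were used for all results and the deposited FPKM for 1 alternative. Depth was 26.4 to 33.8 M counts per library. Genes kept by edgeR's filterByExpr (minimum count 10, minimum total 15) numbered 14412 of 22794. Log2 CPM used TMM and a prior count of 2. The atrial-rich and atrial-poor libraries were compared without a test. "Without overlap" means that all 6 libraries of a set lie on the same side of the other 6. Group comparisons used edgeR's quasi-likelihood F test over all 12 libraries (2-sided, Benjamini-Hochberg over all genes, threshold 0.05), also with log2 *Myl7* CPM as a covariate; SE is the absolute log2 fold change over the square root of F. In simulated counts (14166 genes, NX JV101 against NX saline), edgeR called 73.1% of 4-fold changes and 6 unchanged genes. Each gene was drawn independently around its mean. Shifts shared by many genes, such as those of the atrial transcripts, were not simulated, so that share need not hold for them. Tools were R 4.3.3, edgeR 4.0.16, DESeq2 1.42.0, Python 3.11.15 and pandas 2.3.3.

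The 21 gene lists (202 entries) came from general knowledge, and the libraries, members and lists were chosen with earlier results of these data known. Named genes are the 4 markers, members of atrial, pacemaker and ventricular lists, and up to 3 members of each other list by mean CPM. Among genes of at least 5 CPM, also named are the 10 with the highest r. The 15 higher and up to 12 lower with the largest log2 fold are named too. These needed no overlap and the same sign in the 3 separate contrasts, and no overlap already fixes that sign. Genes of the mitochondrial genome and unnamed gene models were counted but not named, and some genes are not reported here. Alternatives were RLE factors, column totals with and without mitochondrially encoded genes, a prior count of 0.5, no filter, 5 CPM in 3 libraries, log2 of FPKM plus 1, NX or sham groups alone, DESeq2, the replicate number as a block, and leaving out each library.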

Additional observations from a re-analysis of the deposited data

Results flagged for a closer look

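Of 270 sets of 6 libraries examined (135 named genes), 12 had a lowest or highest library set apart from its nearest neighbour. The gap exceeded 0.625 of the range of the set, Dixon's 95% critical value for 6. Gap and range were taken on log2 CPM, while the values printed below are CPM. Chance alone gives such a gap in about 1 set of 20, and no explanation is weighed here.

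In the atrial-rich libraries, NX JV101 replicate 2 was lowest for the muscarinic receptor *Chrm2*, at 28.8 CPM with the next library at 59.5, and for phospholamban, *Pln*, at 2430 CPM with the next at 3310. Sham JV101 replicate 3 was lowest for *Nr2f1* (0.329 CPM, next 1.06), for the conduction factor *Etv1* (3.65 CPM, next 5.87) and for the spliceosome gene *Snrpa1* (7.55 CPM, next 8.26). The ventricular factor *Hey2* was lowest in sham saline replicate 1, at 1.51 CPM with the next at 2.38. The neutrophil gene *S100a8* was lowest in NX JV101 replicate 3, at 0.0249 CPM with the next at 0.715. *Fcamr* was highest in sham saline replicate 3, at 0.805 CPM with the next at 0.566.

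In the atrial-poor libraries, sham JV101 replicate 1 was lowest for *Corin*, at 68.7 CPM with the next at 124, and for the calcium pump *Atp2a2*, at 5180 CPM with the next at 7480. NX saline replicate 1 was lowest for the potassium channel *Kcna5* (7.89 CPM, next 21.4), and NX saline replicate 2 for the neutrophil receptor *Csf3r* (0.747 CPM, next 3.30). None of these genes is among those most like *Myl7*.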

How the results depend on the processing

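The count of genes at least 2-fold higher without overlap was 41 with column totals, 12 with a filter of 5 CPM in 3 libraries, 12 with log2 of FPKM plus 1, 109 with NX libraries alone and 215 with sham libraries alone; fewer genes enter with the stricter filter and fewer libraries with NX or sham alone, and for column totals and FPKM the cause was not tested. The count of lower genes under the same settings was 0, 0, 0, 133 and 438, and 14 with no filter. Leaving out each library, which makes no overlap easier to meet, gave 24 to 33 higher genes and 9 to 33 lower ones. Without sham JV101 replicate 2 and sham saline replicate 2, chosen after seeing the data, 30 genes were higher and 27 lower, again under the easier condition. Of all genes, 10 then had an r of at least 0.9.

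With column totals the medians of the atrial, ventricular and pan-cardiomyocyte lists were 0.934, 0.495 and 0.455, beside a median of all genes of 0.34, so that all 3 shifted with the scaling. The pan-cardiomyocyte median was 0.455 with log2 of FPKM plus 1, and the atrial median 0.916 in sham libraries alone. Leaving out each library gave atrial medians of 0.477 to 0.817, ventricular ones of 0.063 to 0.281 and pan-cardiomyocyte ones of 0.038 to 0.194.

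Of 135 named genes, 135 kept their sign under RLE factors, 133 under totals without mitochondrially encoded genes and 107 under column totals. Under column totals *Iws1* was at 0.040, *Cdan1* at 0.064, *Rab3gap2* at 0.125, *Agfg1* at 0.136, *Smchd1* at 0.139, *Taf5l* at 0.131, *Hnrnpc* at 0.155 and *Snrpa1* at 0.176, against negative values under TMM.

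EdgeR called 0 genes in the 4 group comparisons under each setting run, including every left-out library; DESeq2 called 1 for NX saline against sham saline and 8 for NX JV101 against NX saline. With the replicate block edgeR called 0 in each comparison. Of 18 same-numbered pairs, 6 had a correlation over 0.1 (range −0.503 to 0.25). Pairs of unlike number were not compared, so these values cannot settle whether the numbers pair the samples. Genes under 1 CPM rest on few counts, and their log2 folds depend on the prior count.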

Other observations

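A few lists lie outside the chamber program. Endocardial genes, 6 in number, had a median log2 fold of 0.10, and *Npr3*, the natriuretic peptide clearance receptor, had 13.6, 20.1 and 32.7 CPM in the atrial-rich against 14.6, 18.9 and 25.9 CPM in the atrial-poor libraries. The 5 autonomic neuron and glia genes tested had a median of 0.37, with summed levels of 7.67 to 10.8 CPM in the atrial-rich and 6.37 to 9.17 CPM in the atrial-poor libraries, which overlap. The 6 adipocyte genes tested had a median of 0.16; the brown fat gene *Ucp1* ranged from 0 to 1.72 CPM in the atrial-rich and from 0 to 4.28 CPM in the atrial-poor libraries. Lymphatic genes had a median of −0.51, apart from *Prox1*, which heart muscle cells also make, at 0.24.

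Members below the filter had few counts: *Chgb*, a granule protein, had 0 to 9 counts per library, and *Gjd3*, a nodal connexin, 0 to 10.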
